A study of Drosophila melanogaster with 4 samples.

Results

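The regions described here are the stretches of chromosome arm 2L of Drosophila melanogaster that were enriched for histone H3 over Input chromatin in adult heads. They were taken as all lines of the combined region list that lie on 2L, leaving out 3 regions that touch the stretch from 21.4 to 21.6 Mb. This gave 2993 of the 16757 regions of the series. The same rule gave 385 of 2327 regions in the list of ChIP replicate 1 and 475 of 2779 in that of replicate 2, where 0 and 1 regions were left out. All positions are on FlyBase release 5, on which 2L is 23011544 bp long with its telomere at position 1 and its centromere at the far end. Each region is named by its position alone, since genes were not mapped to it on this release.

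The series holds 4 chromatin libraries from heads of wild-type Oregon-R flies of mixed adult age, with no transgene or treatment. Of these, 2 are ChIP libraries made with an antibody that the labels call H3 antibody3, and the other 2 are Input libraries of unselected chromatin, paired with them by replicate. Flies were raised in population cages on a 22-day cycle, heads were sieved from whole adults, and the fixed and sonicated chromatin was held with antibody for 15 hours. Heads are a mixed tissue of brain, eye and other cells, so every region is a mean over cell types. Separate cages are not stated for the 2 replicates, and the spread between them may therefore be technical.

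Histone H3 is a core protein of the nucleosome, the spool around which DNA is wound, and it is present along nearly the whole genome. ChIP with an antibody to H3 itself, not to one of its modified forms, therefore reads how densely nucleosomes are recovered at a place relative to Input. Arm 2L is the left arm of a large autosome: most of it is gene-bearing euchromatin, and next to the centromere it passes into repeat-rich heterochromatin.

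The whole series frames the values on 2L. The replicate lists cover few bases and the combined list, which the authors made from the same libraries, many more. On 2L 2.66% of bases lay in replicate 1 regions, 3.29% in replicate 2 regions (2.97% ± 0.445, SD, n = 2) and 21.3% in combined regions. The lists hold no read counts, so the depth behind any region is unknown and no counting interval can be given. With 1 value per library and 2 libraries, an exact two-sided sign-flip test cannot give a p below 0.5, so no difference below carries a test.

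Enriched regions on 2L were short and narrow in their range of sizes. In the combined list the median length was 1418 bp, the middle 50% of regions spanned 1152 to 1854 bp, and the longest was 8598 bp. The shortest length in that list, 1001 bp, was shared by 93 regions (3.11%). Both replicate lists had a median of 1483 bp, and their longest regions measured 3368 bp in replicate 1 and 3410 bp in replicate 2. The shortest replicate regions were 1302 and 1301 bp. By contrast 745 combined regions were 1151 bp or shorter, 583 of them under 1100 bp. All of these are far longer than the DNA wound on a single nucleosome.

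The values themselves showed the authors' score to be on a log2 scale. The commonest combined score, 0.405, was carried by 15 regions of 2L. Of the 2993 combined scores on 2L, 2969 (99.2%) differed from it by the log2 of a ratio of whole numbers with a denominator of at most 3000, to within a relative error of 1e-10. The same held for 385 of 385 scores in replicate 1 and 475 of 475 in replicate 2, each against the commonest score of its own list. Read as natural logs instead, 0.568%, 0.779% and 1.26% of scores in the combined, replicate 1 and replicate 2 lists gave such ratios. A difference of 1 in score is therefore a doubling of the underlying ratio. What counts enter that ratio is not stated, and a ratio in lowest terms does not give them back.

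On that scale most 2L regions were nearly alike. The combined scores had a median of 0.405, and the middle 50% lay between 0.368 and 0.440, a span of 1.05-fold in the ratio. Taken as it stands, the median score is a ratio of 1.32. Replicate 1 scores had a median of 0.571 and replicate 2 scores of 0.588 (0.580 ± 0.0120, SD, n = 2), or ratios of 1.49 and 1.50. Scores of different lists were not compared further, since each list was called on its own.

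A small set of 2L regions stood far above the rest in score, and these were short. Scores over 0.6 were given to 26 combined regions, whose median length was 1088 bp, while the other 2967 had a median of 1420 bp. The highest score on the arm, 1.82, belonged to 2L 12893981 to 12895049 (1069 bp). It was followed by 2L 4538965 to 4539965 (1.67, 1001 bp), 2L 2108544 to 2109601 (1.56, 1058 bp) and 2L 1005114 to 1006114 (1.40, 1001 bp). Relative to the commonest score these 4 had ratios of 8 to 3, 12 to 5, 20 to 9 and 2 to 1 in lowest terms. The larger term of this ratio had a median of 123 among regions scoring over 0.6, against 515 over the whole arm. The next 3 by score were 2L 22547497 to 22548497 (1.34), 2L 5170879 to 5171976 (1.19) and 2L 22270936 to 22273004 (1.02), the last at 2069 bp the longest of the top 10.

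Neither replicate list held any of the 10 highest-scoring regions, whose scores ran down to 0.860. Of the 26 regions over 0.6, 1 met a replicate region, that is, shared at least 1 bp with it, while 758 of the other 2967 did. The high scores were mostly short regions, and among regions under 1200 bp 0 of 21 over 0.6 met a replicate and 53 of the other 896 (5.92%) did. Of the 26, 9 (34.6%) lay beyond position 20800000, near the centromere, where 113 (3.81%) of the other regions lay. The lowest combined scores, 0.146 at 2L 19582815 to 19584040 and 0.157 at 2L 4457002 to 4458410, were ratios of 0.836 and 0.842 to the commonest.

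**Figure D1:**
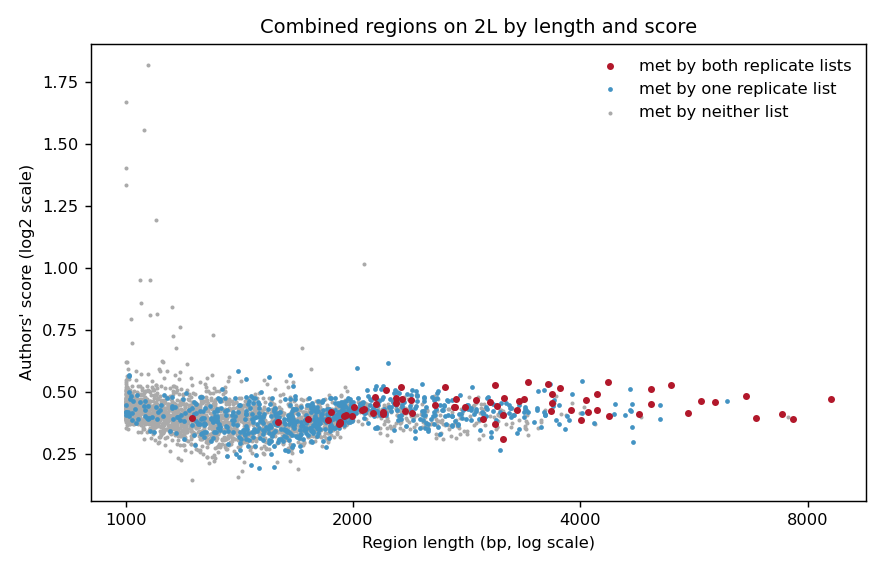
Each point is 1 of the 2993 combined regions on 2L, by its length in bp (log axis) and the authors' score (log2 scale), coloured by whether regions of both replicate lists, one of them or neither overlapped it. Nearly all points lie in a band around 0.4; of the 26 scores above 0.6, 21 belong to regions under 1200 bp, and the regions met by both lists spread towards 8598 bp.

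The longest regions were not the highest-scoring ones, and most were met by the replicates. The 10 longest combined regions, 5560 to 8598 bp, had ordinary scores of 0.391 to 0.484. Replicate 1 met 8 of them, replicate 2 met 9, and 8 were met by both. All but 1 of these 10 lay in the first 6.9 Mb of the arm, the exception being 2L 19626988 to 19632762. That limit comes from a cut of the arm by covered share, given below, to which long regions add. By that cut 30, 245 and 872 of the 2993 combined regions lay before it. The longest, 2L 3608405 to 3617002, held 5298 bp of replicate 1 regions and 1355 bp of replicate 2 regions. Also among the 10 were a pair of neighbours, 2L 1405103 to 1412506 (7404 bp) and 2L 1412815 to 1420461 (7647 bp), which follow each other with a short gap between them. Replicate 1 had 2 regions and replicate 2 had 3 in the first of these, and each had 1 in the second. By contrast 2L 1957813 to 1965339, at 7527 bp longer than one of that pair, met neither replicate list.

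Replicate lists recurred within each other on 2L for a minority of regions. Of the replicate 1 regions on 2L 64 (16.6%) met a replicate 2 region by at least 1 bp, against 19.1% over all sequences. Of the replicate 2 regions 63 (13.3%) met one of replicate 1, against 15.8% over all sequences. Most of the 65 overlapping pairs lay closely on top of each other. At the median the overlap was 1321 bp and took 89.6% of the shorter region, and the midpoints were 326.5 bp apart. The overlap took at least 50% of the shorter region in 50 of the 65 pairs, and the smallest was 49 bp. Across these 65 pairs replicate 1 and replicate 2 scores gave a Pearson r of 0.444 and a rank correlation (Spearman) of 0.427, as a description over regions that share libraries and base composition. Of all bases in either replicate list on 2L, 5.90% were in both (75.5 kb).

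The combined list contained nearly every replicate region on 2L. It was met by 96.6% of replicate 1 and 96.8% of replicate 2 regions, against 96.4% and 96.5% over all sequences, and held 92.7% and 91.7% of their bases. Since it was made from the same libraries, this describes the lists. Outside it stood 13 replicate 1 and 15 replicate 2 regions, 0 of which met the other replicate. They were 1766 and 1937 bp from the nearest combined region at the median. The most remote were 2L 10452607 to 10454294 in replicate 1 (14044 bp away) and 2L 8620014 to 8621355 in replicate 2 (14709 bp away).

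In the other direction, most combined regions on 2L had no counterpart in a replicate list. Replicate 1 met 371 of them (12.4%) and replicate 2 met 459 (15.3%), against 13.2% and 16.0% over all sequences. Both lists met 71 (2.37%, against 2.80% over all sequences), and neither met 2234 (74.6%, against 73.6%). Replicate 1 alone met 300 (10.0%, against 10.4%) and replicate 2 alone met 388 (13.0%, against 13.2%). These shares are near those of the whole series. At the median, regions met by both were 3041 bp long with a score of 0.440, and those met by neither were 1293 bp long with a score of 0.403. The combined region with the most bases of both replicates was 2L 1405103 to 1412506, where replicate 1 had 3755 bp and replicate 2 had 5056 bp. Next was 2L 8025512 to 8029176, a 3665 bp region that held 2 regions of each replicate.

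Length, more than score, went with being met. In the longest 25% of combined regions on 2L (1854 to 8598 bp), 28.3% met replicate 1 and 32.8% met replicate 2. In the shortest 25% (1001 to 1151 bp) 2.28% and 3.22% did. A longer region has more bases with which to meet another, so the share of bases was taken as well. That share does not remove a limit of the lists themselves. No replicate region was shorter than 1301 bp, so the shortest class could have no counterpart of its own size. Replicate 1 regions covered 18.7% and replicate 2 regions 21.7% of the bases of the longest class, and 2.18% and 2.79% of those of the shortest. By score the classes were closer: 14.6% and 19.9% were met by replicates 1 and 2 in the highest 25% of scores, and 11.4% and 11.8% in the lowest. The highest score class was the shorter of these, with a median length of 1273 bp against 1470 bp. By share of bases, replicates 1 and 2 covered 14.9% and 19.6% of the highest score class. In the lowest they covered 10.1% and 10.4%. Both lists met 36 regions of the highest score class and 1 of the lowest.

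**Figure D2:**
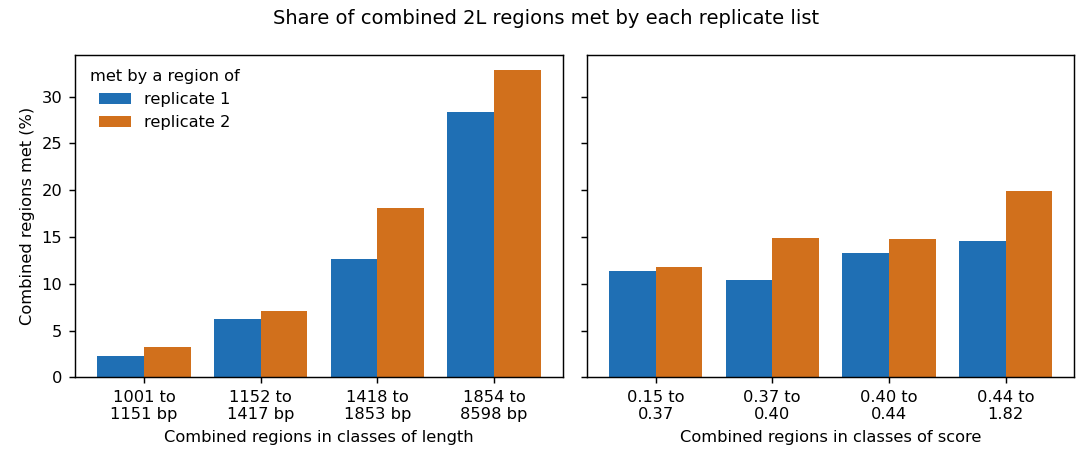
Bars give the percentage of combined 2L regions met by at least 1 region of the replicate 1 list (blue) or the replicate 2 list (orange), in 4 classes of about equal size by length (left) or by score (right). With length the share climbs from 2.28% to 28.3% for replicate 1 and from 3.22% to 32.8% for replicate 2, and with score it stays between 10.3% and 19.9%.

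Score and length were weakly correlated over the arm as a whole. Spearman rho was -0.113 across the 2993 combined regions, 0.0975 across the 385 of replicate 1 and 0.0750 across the 475 of replicate 2. Pearson r was -0.00978, 0.190 and 0.183 in the same lists. Neither coefficient describes a relation that falls and then rises. By length class the median score was not monotonic: it was 0.429 in the shortest class, 0.390 and 0.377 in the middle ones and 0.416 in the longest.

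Along the arm, listed regions were dense on the telomere side past its tip and thin near the centromere. How well reads could be placed in each window was not measured, so a window with few regions is not shown to be low in H3. Covered share was taken in 228 windows of 100 kb. It ranged from 0% to 59.5% in the combined list, with a median of 19.9% and an SD of 10.1 percentage points. Replicate 1 reached 12.4% and replicate 2 20.5% in their densest windows, and 61 and 38 windows held no base of them. Windows empty in both replicates numbered 18, and there the combined list covered 8.56% at the median, against 24.1% in the 147 windows where both replicates had regions.

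The 5 densest windows all lay within the first 1.5 Mb. The window 2L 1400001 to 1500000 was 59.5% covered by 28 combined regions, with 10.8% in replicate 1 and 20.5% in replicate 2, the highest value of replicate 2 on the arm. It was preceded by 2L 1300001 to 1400000 (47.0%) and 2L 1200001 to 1300000 (44.8%), a run of 3 dense windows in a row. The others were 2L 900001 to 1000000 (45.2%) and 2L 500001 to 600000 (44.7%). Of the 23 windows at or above the 90th percentile (34.3%), 19 lay in the first 6.9 Mb. This limit comes from the cut of these same windows given below, so a gathering of dense windows before it is built in. By that cut 3, 12 and 54 of the 228 windows lay before it. A run of 4 such windows, 2L 5300001 to 5700000, averaged 40.1% in the combined list, 6.40% in replicate 1 and 7.51% in replicate 2. The one such run beyond the first 6.9 Mb was 2L 10700001 to 10900000 (37.0%).

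Of the 5 sparsest windows 4 were close to the centromere. Once regions touching the left-out stretch were dropped, the window 2L 21600001 to 21700000 held no region in any list. The other windows there were 2L 22900001 to 23000000 (1.55%), 2L 22800001 to 22900000 (2.33%) and 2L 22100001 to 22200000 (3.20%), all without replicate bases. In the middle of the arm 2L 12400001 to 12500000 stood out at 2.37%, with 2 combined regions and 0 bases of either replicate. Of the 23 windows at or below the 10th percentile (9.28%), 11 lay beyond position 20800000. Of all 228 windows 20 lay there. This position too comes from the cut of these windows given below, so a gathering of sparse windows beyond it is built in.

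**Figure D3:**
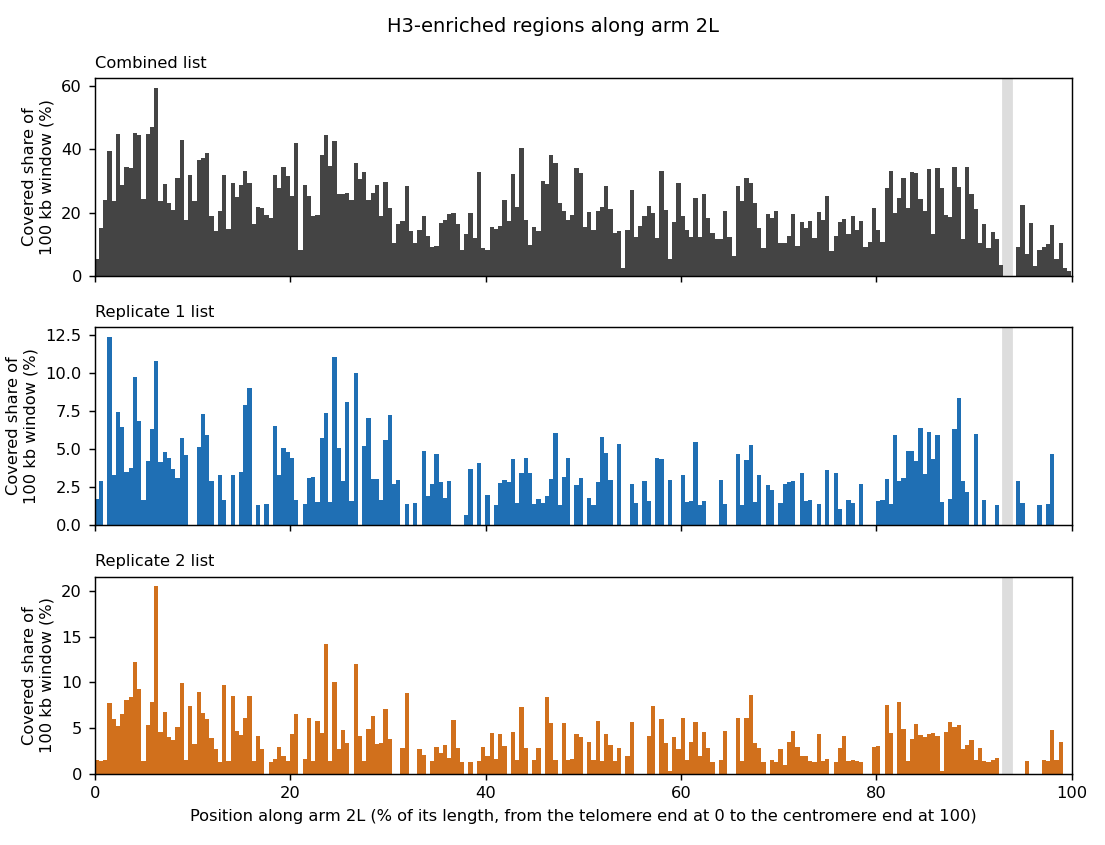
Bars give the percentage of each 100 kb window of 2L covered by regions of the combined list (top), replicate 1 (middle) and replicate 2 (bottom), along the arm as a percentage of its length from the telomere end; the grey band is the stretch left out. In all 3 panels the windows are low at the telomere tip, high over the rest of that side, lower through the middle, higher again before the centromere side, and lowest at that end.

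A least-squares cut of the combined windows into 6 stretches took up 45.4% of their variance. The number 6 was chosen after the windows had been seen. From telomere to centromere the stretches began at positions 1, 300001, 1500001, 6900001, 18600001 and 20800001. The first 0.3 Mb, at the tip, was 14.7% covered. The next 1.2 Mb, the densest stretch, was 39.2% covered, with 6.37% in replicate 1 and 8.21% in replicate 2. The following 5.4 Mb was at 27.4% (3.64% and 4.55% in replicates 1 and 2).

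A long middle stretch of 11.7 Mb was covered less, 18.0% in the combined list and 1.95% and 2.47% in replicates 1 and 2. Coverage was then higher again over 2.2 Mb, at 25.9% (3.88% and 4.03%), before the last 2.21 Mb, at 9.23% (0.726% and 1.13%). Replicate 2 had the same order of the last 5 stretches as the combined list, while replicate 1 put the 2.2 Mb stretch above the 5.4 Mb one. In each replicate list the tip held 3 regions. Cut in the same way on its own, replicate 1 gave boundaries at 300001, 1500001, 7200001, 18800001 and 20800001. Replicate 2 gave 300001, 1300001, 1500001, 7000001 and 20900001, and so set no boundary near 18600001.

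The stretches differed in how many regions they held more than in the regions' median size or score. They were cut on covered share, which comes from the number and length of regions, so a difference in these is built in. Score did not enter the cut. The densest stretch had 204.2 combined regions per Mb, the middle 117.9 and the last 60.7. Median lengths were 1660, 1354 and 1335 bp in the same stretches, and median scores 0.416, 0.402 and 0.413. The final 1 Mb of the last stretch alone had a median score of 0.470. The tip had the lowest median score, 0.366. Both replicates met 5.71% of the combined regions in the densest stretch, 1.31% in the middle and 0.820% in the last.

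The replicates had similar landscapes, and more so in wide windows. Across the 228 windows of 100 kb the Pearson r of their covered shares was 0.553, with a Spearman rho of 0.469. In 456 windows of 50 kb r was 0.392, in 92 of 250 kb it was 0.667, and in 46 of 500 kb it was 0.792. Windows share library, depth, base composition and how well reads can be placed, so these values describe the lists and carry no p.

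Windows of the combined list were most alike when adjacent, and their likeness fell unevenly with distance, with no sharp end. The Pearson r of covered share was 0.467 between adjacent 100 kb windows, 0.305 at 0.5 Mb and 0.366 at 0.7 Mb. It was 0.305 between windows 1 Mb apart and 0.269 at 1.2 Mb. It was 0.160 at 1.3 Mb, 0.0303 at 1.4 Mb, 0.148 at 1.5 Mb and 0.118 at 1.6 Mb. In replicate 1 it was 0.223 for adjacent windows, 0.287 at 1 Mb, 0.123 at 1.2 Mb and -0.0426 at 1.4 Mb. In replicate 2 it was 0.181, 0.219, 0.168 and 0.0454 at these 4 distances.

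**Figure D4:**
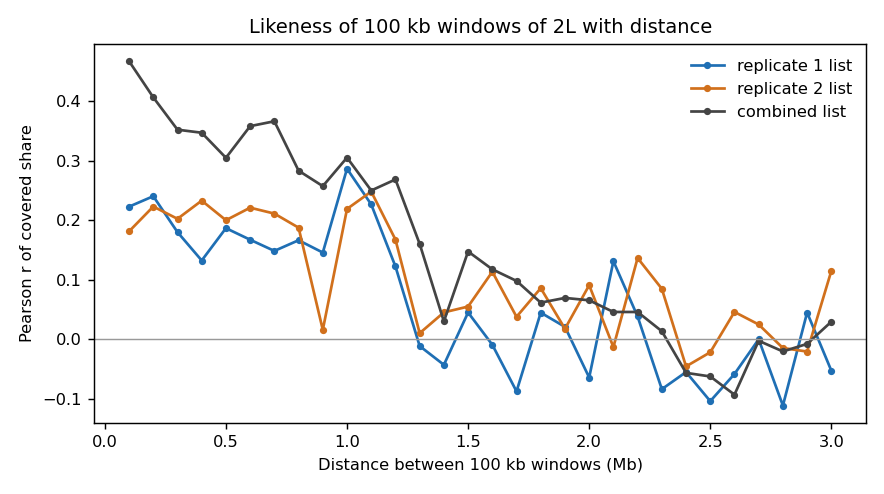
Points give the Pearson r between covered shares of 100 kb windows of 2L that lie a given distance apart in Mb, for the replicate 1, replicate 2 and combined lists. In the combined list r is 0.467 for adjacent windows and 0.269 at 1.2 Mb, and all 3 lists lie between -0.0426 and 0.0454 at 1.4 Mb, after which the combined r is 0.148 at 1.5 Mb.

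Regions on 2L were spaced closely in the combined list. The median gap to the next region was 3188 bp, with 10% of gaps at most 382 bp and 10% at least 14062 bp. The SD of gaps was 1.36 times their mean. Replicate 1 regions had a median gap of 34890 bp and replicate 2 regions one of 26493 bp, and the SD was 1.19 and 1.21 times the mean. Gaps of at most 1000 bp made up 22.6% of the combined gaps, 4.18% in replicate 1 and 2.75% in replicate 2.

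Runs of close neighbours were common but short. With gaps of at most 1000 bp counted as links, 1817 combined regions stood alone, 750 were in pairs, 381 in runs of 3 or 4, and 45 in 8 chains of 5 or more. The chains covered 80.3% of their span at the median, and 5 of the 8 lay in the first 6.9 Mb. So did 617 of the 1817 lone regions, and 30, 245 and 872 of all 2993 regions by stretch. With 8 chains, and a limit cut on the coverage of this list, no clustering of chains is read from this. The longest by number was 2L 1256348 to 1274670, with 7 regions over 18323 bp that were 81.7% covered and held 2 regions of each replicate. Another 7 regions made up 2L 1430805 to 1446693, inside the densest window. The remaining 3 of the top 5 were 2L 13372372 to 13384108 (6 regions), 2L 10065681 to 10079773 (5 regions, 87.7% covered) and 2L 5398632 to 5409965 (5 regions).

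Replicate 1 met 7 and replicate 2 met 8 of the 8 chains. Among regions standing alone the shares met were 11.3% and 15.1%. A chain spans more bases than a lone region, and chains were not set against spans of equal length. Single regions were also sorted by the distance to their nearest neighbour, with no test. Of the 723 combined regions with a neighbour within 500 bp 13.6% and 16.3% met replicates 1 and 2, and of the 152 with none within 10000 bp 9.87% and 9.21% did. Both lists met 21 of the 723 (2.90%) and 1 of the 152 (0.658%). The median lengths of these classes were 1452 and 1325 bp.

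The share of gaps lying near the centromere was larger among the longest. Between neighbouring regions the combined list left 12 gaps of at least 50 kb on 2L, 791.2 kb in all or 3.47% of the arm, and 6 of them lay beyond position 20800000. Of the 72 gaps of at least 30 kb 18 lay there, and of the 162 of at least 20 kb 25 did, while 101 of those 162 were in the middle stretch. Beyond that position lay 122 of the 2993 combined regions, over 2.21 Mb. It was cut on low covered share of this same list, so long gaps beyond it are in part built in. Gaps touching the left-out stretch were not counted. Directly after it, 2L 21600001 to 21705616 held no region of any list over 105616 bp, once regions touching the left-out positions were dropped. With 2L 21600001 to 21705616 counted there were 13 gaps of at least 50 kb, over 896.8 kb or 3.93% of the arm. Of these, 7 lay beyond position 20800000. The longest of the 12 was 2L 22855339 to 22964987 (109649 bp), followed by 2L 22632753 to 22701848 (69096 bp) and 2L 22273005 to 22340447 (67443 bp). None of these 3 held a base of either replicate. In the middle of the arm the longest were 2L 12414267 to 12480432 (66166 bp, with no replicate bases) and 2L 13542044 to 13608120 (66077 bp). The gap at 13542044 held 129 bp of a replicate 1 region and a whole replicate 2 region of 1336 bp.

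Further gaps were 2L 22765817 to 22829968 (64152 bp), 2L 16282501 to 16346495 (63995 bp), 2L 8070450 to 8131990 (61541 bp), 2L 22426038 to 22485884 (59847 bp) and 2L 38469 to 96219 (57751 bp). Of these, 2L 22426038 to 22485884 held a 1361 bp replicate 1 region. In the others the replicates had at most 46 bp. The last named is the only one of the 10 longest gaps at the telomere tip. Of the 12 gaps of at least 50 kb 7 had no replicate bases.

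**Figure D5:**
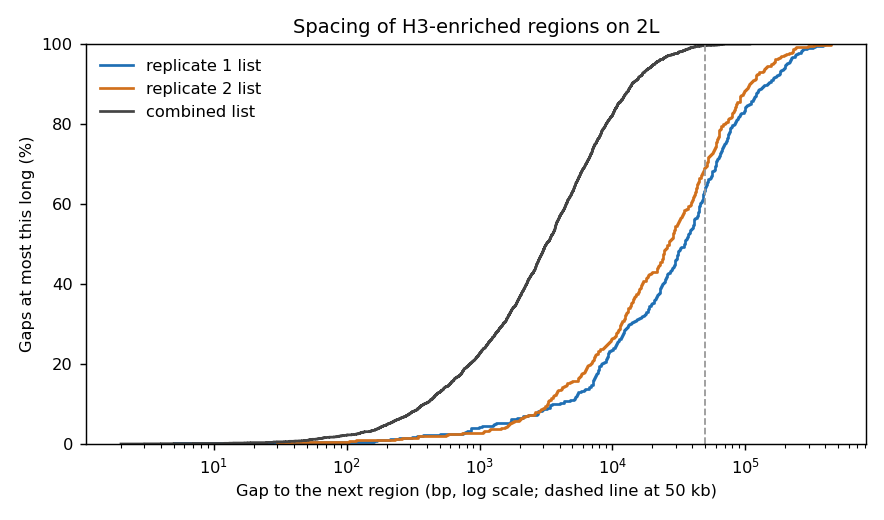
Lines give the cumulative percentage of gaps between neighbouring regions of 2L up to a given length in bp (log axis) for the replicate 1, replicate 2 and combined lists; the dashed line marks 50 kb. Median gaps are 34890 bp (replicate 1), 26493 bp (replicate 2) and 3188 bp (combined); 12 combined gaps reach the line, not counting the one beside the left-out stretch.

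The drop towards the centromere was measured over the last 2 Mb. There 8.83% of bases lay in combined regions, against 22.4% of the rest of the arm, a ratio of 0.395. In replicate 1 the shares were 0.722% and 2.82% (ratio 0.256) and in replicate 2 1.03% and 3.48% (ratio 0.296), a mean ratio of 0.276 ± 0.0281 (SD, n = 2). Regions there were few, and their median scores were above those of the rest in each list. The last 2 Mb held 106 combined regions with a median score of 0.418, against 0.404 in the rest of the arm. In replicate 1 the 9 regions of the last 2 Mb had a median of 0.635, against 0.571 elsewhere. In replicate 2 the 12 regions there had a median of 0.611, against 0.587. The highest replicate 1 score of the arm, 1.33, was in the last 2 Mb, at 2L 22509152 to 22510945. Over the last 1 Mb the median was 0.470 in 52 combined regions, 0.704 in 5 of replicate 1 and 0.647 in 8 of replicate 2. The rest of the arm was then at 0.404, 0.570 and 0.587. Over the last 3 Mb replicate 1 was below the rest (0.552 against 0.572), and the other lists stayed above it.

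The outermost regions mark how far enrichment was listed. At the telomere side the first combined region was 2L 7978 to 9307, and the first replicate regions were 2L 21599 to 23278 in replicate 1 and 2L 37014 to 38514 in replicate 2. At the centromere side the last were 2L 22964988 to 22966536 in the combined list, 2L 22586771 to 22588175 in replicate 1 and 2L 22763989 to 22765837 in replicate 2.

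Beside the other major arms, 2L was closest to 3L in coverage. Covered shares on 2L over those of 3L gave 0.998 in the combined list, 0.878 in replicate 1 and 0.980 in replicate 2. Over 2R the ratios were 0.808, 0.669 and 0.679, and over 3R 0.803, 0.720 and 0.721. Over the X chromosome they were 1.67, 1.92 and 1.78. The order 2L below 2R and 3R and above X was the same in each list, and was not tested, as an arm gives 1 value per library. Spacing went with it: the median combined gap was 3188 bp on 2L, against 2486 bp on 2R, 3109 bp on 3L, 2747 bp on 3R and 5724 bp on X. Median combined scores hardly differed between 2L (0.405) and 2R, 3L and 3R (0.405, 0.403 and 0.403), while X was at 0.517.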

How the data were processed

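H3 ChIP and Input libraries from fly heads were sequenced, and reads were aligned with Bowtie 0.12.7, per the submitters' processing notes. The authors deposited 3 region lists, 1 per ChIP replicate and 1 combined, on FlyBase release 5 per the file headers. The value of each region is the authors' deposited score. The sources used here give neither the caller nor its threshold, nor how the replicates were joined. Input libraries have no region values of their own here, and what part they had in the score is unknown. Depth per sample is unknown.

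Regions touching 21.4 to 21.6 Mb were left out, and covered shares were taken over the other 22811543 bp. Lists met where regions overlapped by at least 1 bp. Windows were 100 kb, a chain was 5 or more regions linked by gaps of at most 1000 bp, and deserts were gaps of at least 50 kb between neighbouring regions, without those touching the left-out stretch. Named were the 10 highest-scoring and 10 longest regions, the 10 longest gaps, the 5 densest and 5 sparsest windows and the top 5 chains. Members and rules were chosen with earlier results of these data known; the log2 reading of the score, the 6 stretches and the 0.6 score limit were set after its values had been seen. Coverage, overlap, chain and stretch code was tested on simulated data. A gene table on release 6 was not used, since coordinates were not converted. Alternatives changed the score and length limits, merging, overlap, window, gap and centromere limits. Values were computed with pandas 2.3.3 and numpy 2.4.6 under Python 3.11.15, and plots drawn with matplotlib 3.10.9.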

Additional observations from a re-analysis of the deposited data

How the results depend on the processing

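With a score limit at each list's median there were 1270 combined regions on 2L, over 9.09% of the arm, and 1.37% in the mean replicate list. With it 9.66% of replicate 1 regions met replicate 2, 7.66% the reverse, and 1.57% of combined regions met both lists and 82.1% neither. The window r was then 0.518, and the proximal ratio 0.480 in the combined and 0.314 in the mean replicate list. Regions of 1500 bp or longer numbered 1330 and covered 12.6% (combined) and 1.59% (mean replicate). These limits remove regions by construction. Overlap of at least 50% of both regions gave 12.2%, 9.89%, 1.20% and 78.0% for the same 4 shares. It also left 0 of the 10 longest regions, of 5560 to 8598 bp, met by either replicate. Under this rule 1 replicate region must cover at least 50% of the combined one. The longest replicate regions on 2L were 3368 and 3410 bp. Anything beyond these lengths was not tested. The window r was 0.392, 0.667 and 0.792 in windows of 50, 250 and 500 kb, 0.498 for region midpoints and 0.531 without the last 2 Mb. Over the last 1 Mb the proximal ratio was 0.320 in the mean replicate list, and over the last 3 Mb it was 0.605 (combined) and 0.546 (mean replicate), which then take in the denser stretch beside it. There were 72 gaps of at least 30 kb, 18 of them beyond position 20800000. With links of at most 500 bp 0 chains remained, and with links of at most 2000 bp 48 did. Leaving out a replicate gave a mean replicate covered share of 2.66% to 3.29% and a proximal ratio of 0.256 to 0.296. The median length was 1315.5 bp with the score limit, 1906.5 bp with the length limit and 1517.5 bp after merging regions within 500 bp. The other values recomputed moved by less than the spread between replicates, by less than 1.5 times for counts, or within the binomial interval of a recurrence share, which covers counting error only. No paired analysis was possible because no list gives Input a value that a ChIP library could be paired with. With the depth not known, a region absent from a replicate list is not shown to lack enrichment.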
